A study of Homo sapiens with 4 samples.

Results

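TIPARP and 5 genes of the aryl hydrocarbon receptor pathway (AHR, ARNT, AHRR, CYP1A1 and CYP1B1) were followed across the RNA-seq libraries of MIB1-iKO cells, 6 of the 58302 genes listed. TIPARP was chosen by its adjusted p in the comparison of dox with no dox, and the other 5 were taken for their place in the pathway. The host is NCI-H838, established from a human lung cancer of the non-small-cell type, and it holds a guide directed at MIB1 together with a doxycycline (dox) inducible Cas9. MIB1 encodes the E3 ubiquitin ligase Mind Bomb 1. All 4 libraries are from day 3: 2 received no dox and 2 received dox at 0.5 μg/mL. Both groups therefore carry the same construct, and the study's methods describe the MIB1-iKO lines as single-cell clones. No library had dox without the MIB1 guide, so dox itself, Cas9 and the loss of MIB1 cannot be told apart here. The labels do not say whether replicates were separate cultures. For a comparison of this design under basal BMP signaling, the paper's legend names 2 biological replicates per condition, without describing how they were made. The p-values therefore speak only for these samples. In limma they rest on the spread between the samples and on variance borrowed from other genes.

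The aryl hydrocarbon receptor, encoded by AHR, is a ligand-activated transcription factor that waits in the cytoplasm with HSP90 and other chaperones. On binding planar aromatic compounds or tryptophan metabolites it enters the nucleus, pairs with ARNT and binds xenobiotic response elements in DNA. Its classical targets are the cytochrome P450 genes CYP1A1 and CYP1B1 and its own feedback inhibitors, AHRR, which competes for ARNT, and TIPARP (also called PARP7), a mono-ADP-ribosyltransferase that modifies AHR and lowers its activity. Because TIPARP is also induced by signals that do not pass through AHR, the question put to these libraries was whether the other targets moved with it.

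The response element has the core GCGTG, or CACGC on the opposite strand. To show where this core lies in the members' promoters, the 250 bases before an annotated start are given for TIPARP and for the AHR targets CYP1A1 and AHRR, 5′ to 3′ on the gene's strand and with the cores in capitals. The sequences are RefSeq's on GRCh38.p14, and for TIPARP and AHRR, which have several starts in the table, the most upstream start is shown.
TIPARP (chr3:156674340-156674589, plus strand): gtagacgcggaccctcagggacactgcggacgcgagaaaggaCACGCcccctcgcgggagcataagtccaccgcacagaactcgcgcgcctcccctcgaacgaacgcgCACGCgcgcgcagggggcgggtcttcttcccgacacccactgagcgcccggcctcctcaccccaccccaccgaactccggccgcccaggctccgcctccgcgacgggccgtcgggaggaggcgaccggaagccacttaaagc
CYP1A1 (chr15:74725529-74725778, minus strand): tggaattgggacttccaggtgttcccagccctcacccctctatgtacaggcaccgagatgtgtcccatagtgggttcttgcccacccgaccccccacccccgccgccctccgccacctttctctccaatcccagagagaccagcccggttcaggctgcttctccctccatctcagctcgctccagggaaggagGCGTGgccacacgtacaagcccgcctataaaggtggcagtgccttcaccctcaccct
AHRR (chr5:321464-321713, plus strand): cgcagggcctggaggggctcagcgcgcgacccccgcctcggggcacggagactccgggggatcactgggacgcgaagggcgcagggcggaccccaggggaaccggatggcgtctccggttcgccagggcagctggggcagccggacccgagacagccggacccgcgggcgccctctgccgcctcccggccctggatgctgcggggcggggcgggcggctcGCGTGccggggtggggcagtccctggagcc

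TIPARP had 2 cores before this start and 0 before each of its other 2 starts. CYP1A1 had 1, AHRR 1 before the start shown and 2 before its second start, and AHR and ARNT had 0. Of 35097 promoters of the same length, 32.2% held at least 1 core and 10.2% at least 2, so a core is common in such windows. The longer form TNGCGTG, read on both strands and containing the core, was in 4.52% of promoters and, among the members, only before the first AHRR start. A match is a description of the letters and not of binding. No bases further upstream were searched, so these counts are not the number of response elements of a gene. CYP1B1 was not matched in the promoter table.

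The deposited read counts summed to 24398411 and 21207419 without dox and to 15943025 and 17048990 with dox, so both dox libraries were shallower. MIB1, the targeted gene, had 598 and 588 reads (no dox) and 90 and 59 reads (dox), in the direction of the labels. Of the epithelial markers, EPCAM, KRT7, KRT8, KRT18 and CDH1 had reads in every library, and KRT19 was listed at 0 throughout. Of the 5 tested, EPCAM, KRT7 and CDH1 had log2 fold changes of 0.13, 0.13 and 0.25, and KRT8 and KRT18 of -0.34 and -0.41 (limma, lowest adjusted p = 0.339), with a median of 0.13, and their part in the results was not tested. The lung lineage markers were at or near 0, with NKX2-1 and SFTPB at 0 and all 4 together holding between 8 and 13 reads a library. The summed RPKM of the leukocyte, fibroblast and endothelial markers lay between 0.670 and 0.698 without dox and between 0.287 and 0.856 with dox, with PTPRC at 0 in all. COL1A1, the only one of them with enough reads to test, had 89 and 82 reads (no dox) and 22 and 83 reads (dox). RPKM is the authors' read count divided by gene model length and library depth, with a further scaling per sample. It is the scale on which levels of different genes can be compared.

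TIPARP had the largest log2 fold change of the 5 members tested. Its RPKM was 8.15 and 7.78 in no dox replicates 1 and 2 and 13.5 and 13.96 in dox replicates 1 and 2. Both dox libraries lay far above both no dox libraries, and the replicates of a group differed little. The group means were 7.97 ± 0.261 and 13.7 ± 0.329 RPKM (SD, n = 2 per group), and their ratio was 1.72. It rested on 922 and 820 reads (no dox) and 990 and 1218 reads (dox), so the reads were higher in the dox libraries even before allowing for their smaller totals. The gene (ENSG00000163659) occupies bases 156673235 to 156706770 of chromosome 3 in GRCh38, plus strand. In bulk RNA, more cells that express TIPARP and more of its RNA per cell cannot be told apart.

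The log2 fold change of TIPARP in limma was 0.82 ± 0.12 (SE), with a 95% interval from 0.56 to 1.08. Since TIPARP was picked for its adjusted p (0.0243), this is a description and not a test. By unadjusted p it ranked 6 of 16181 genes tested. The gene just inside the threshold of 0.05 was SMAD9, a BMP pathway SMAD, at rank 11 with an adjusted p of 0.0265, and the gene just outside was SRSF2, a splicing factor, at rank 12 with 0.0636 (both from limma). TIPARP did not reach the 2-fold change that the study also asked of its calls.

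**Figure D1:**
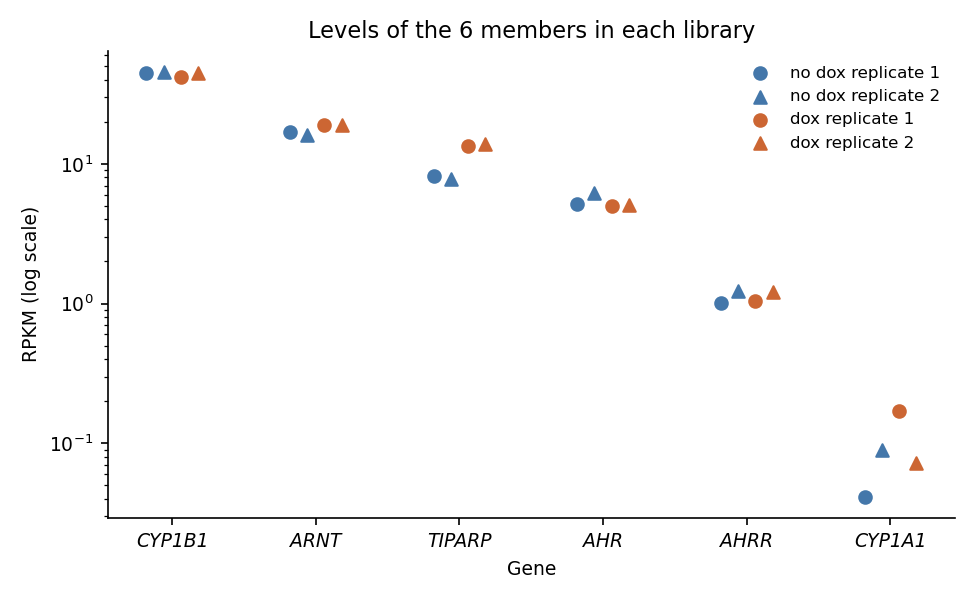
RPKM of the 6 members in each of the 4 libraries on a log axis, ordered by mean level; circles and triangles are replicates 1 and 2, blue is no dox and orange is dox. TIPARP lies between 7.78 and 8.15 without dox and between 13.5 and 13.96 with dox, whereas the CYP1B1 points of the 2 groups overlap.

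Per length, the members' levels over the 4 libraries ran from CYP1B1 through ARNT, TIPARP, AHR and AHRR to CYP1A1. No 2 neighbours in that order overlapped: the lowest library of each gene lay above the highest library of the next. CYP1B1 averaged 44.3 RPKM and CYP1A1 0.0930 RPKM, so these targets of the same receptor stood at opposite ends of the order. TIPARP was at 1.57 and 1.26 times the RPKM of AHR without dox and at 2.72 and 2.75 times with dox. Relative to CYP1B1 it was at 0.183 and 0.171 without dox and at 0.322 and 0.310 with dox.

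AHR, the receptor (ENSG00000106546, chromosome 7, 16916359 to 17346152, plus strand), stood at 5.18 and 6.17 RPKM without dox and at 4.97 and 5.08 RPKM with dox. Both dox libraries were the lower ones, by a margin smaller than the distance between the no dox replicates. Its log2 fold change was -0.13 ± 0.14 (SE; 95% interval -0.43 to 0.16; limma, adjusted p = 0.816). On the scale of the fit, log2 CPM (reads divided by library total) brought to common quantiles, the groups did not overlap for AHR, ARNT and TIPARP, 3 of the 5 members tested, nor for 38.6% of all genes tested. For AHR this rested on the scaling: divided by library total alone it stood at 31.3 and 39.9 CPM without dox and at 29.8 and 33.9 CPM with dox, where the groups overlapped.

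ARNT, the partner that AHR needs to bind DNA (ENSG00000143437, chromosome 1, 150809713 to 150876708, minus strand), had 16.8 and 16.1 RPKM without dox and 18.9 RPKM in each dox library. The dox libraries were higher, and the ratio of group means was 1.15. Its log2 fold change was 0.24 ± 0.11 (SE; 95% interval -0.01 to 0.48; limma, adjusted p = 0.550), short of the threshold.

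AHRR, the repressor and itself an AHR target (ENSG00000063438, chromosome 5, 321714 to 438291, plus strand), stood at 1.01 and 1.23 RPKM without dox and at 1.04 and 1.22 RPKM with dox. The groups overlapped almost entirely, on 150, 169, 100 and 139 reads. Its log2 fold change was 0.03 ± 0.21 (SE; 95% interval -0.42 to 0.48; limma, adjusted p = 0.982). An annotated readthrough transcript, PDCD6-AHRR, overlaps the gene on the same strand, so the assignment of these reads is uncertain.

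CYP1B1, a P450 that hydroxylates oestrogens and polycyclic hydrocarbons (ENSG00000138061, chromosome 2, 38066973 to 38109902, minus strand), had 44.6 and 45.5 RPKM without dox and 41.9 and 44.98 RPKM with dox. It was the member with the most reads, between 3502 and 5752 a library, and its groups overlapped. The log2 fold change was -0.03 ± 0.12 (SE; 95% interval -0.27 to 0.22; limma, adjusted p = 0.965). The interval thus reaches at most 0.22. RMDN2 (250 to 439 reads a library) and CYP1B1-AS1 (21 to 73 reads) overlap it on the opposite strand, and without a stated strand setting their reads cannot be told apart from its own where they overlap.

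CYP1A1, the P450 most often used as a readout of AHR (ENSG00000140465, chromosome 15, 74719542 to 74725536, minus strand), had 3 and 6 reads (no dox) and 8 and 4 reads (dox). These are too few for the count filter, and CYP1A1 was not tested. Its RPKM of 0.0414, 0.0889, 0.170 and 0.0716 in the same order overlapped between the groups. Over both libraries of a group, 9 reads without dox and 12 with dox gave a ratio of 1.84 after dividing by the library totals, with an exact 95% interval from 0.713 to 4.95. That interval covers counting error only. It includes no change, and at this depth a change within it could not be told from none.

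Of the 5 members tested, 1, TIPARP, had an adjusted p of at most 0.05 in limma, where 0.068% of all genes tested did. TIPARP was chosen on that value, so nothing is read from the count. None of the other 4 had an unadjusted p under 0.05 either, and 9.28% of all genes tested did. With the 2-fold requirement added, 0 members and 0.0371% of all genes passed. On the same counts, DESeq2 and edgeR each gave an adjusted p of at most 0.05 to TIPARP alone among the members. As TIPARP was picked on these counts, this is no independent support. The differences between TIPARP and the other members were not tested, because TIPARP entered through its rise.

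**Figure D2:**
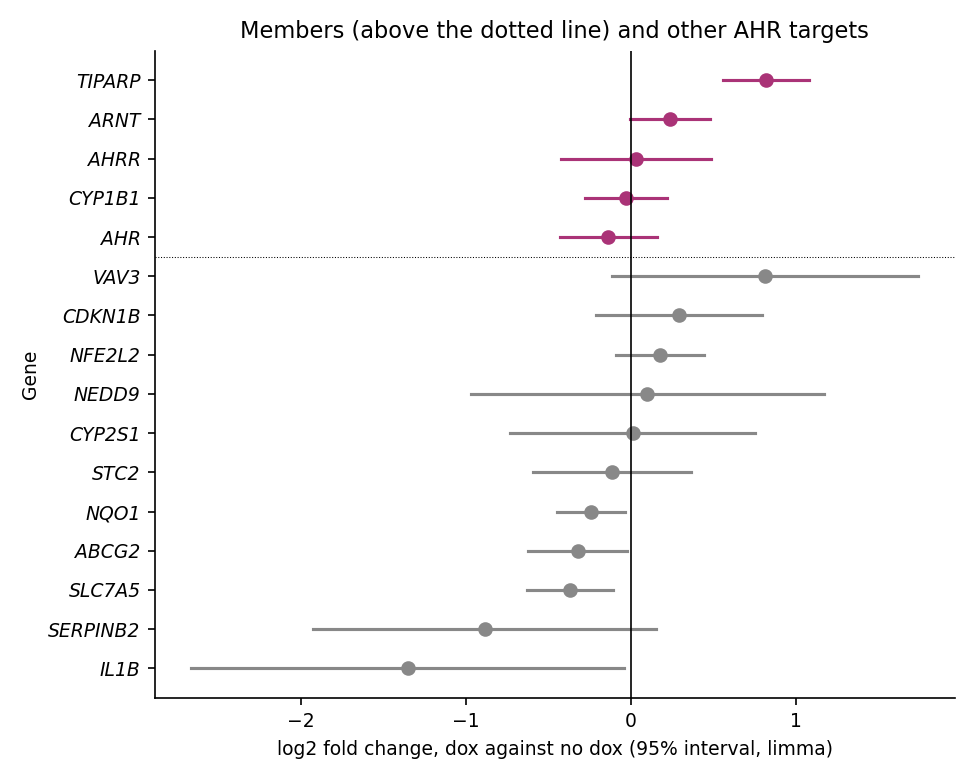
Log2 fold changes of dox against no dox with 95% intervals from limma for the 5 members tested, in purple above the dotted line, and for the 11 tested AHR targets outside the members, in grey. The interval of TIPARP runs from 0.56 to 1.08, and those of AHR, ARNT, AHRR and CYP1B1 include 0.

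Further target genes of AHR were examined through a list of 19 that did not include the members. Of these, 11 had enough reads to test, and 0 had an adjusted p of at most 0.05 (limma, edgeR and DESeq2). Over all genes tested, 0.068% passed that threshold in limma and edgeR and 0.173% in DESeq2. A count of 0 is thus the usual result for a list of this length. Log2 fold changes of the 11 tested targets were above 0 for 5 and below 0 for 6, with a median of -0.12, against 0.00 over all genes tested. The unadjusted p was under 0.05 for 4 genes, all lower with dox, NQO1, SLC7A5, ABCG2 and IL1B, which is 4 of 11 where 4.59% of all genes tested were lower at that level. Counting both directions, edgeR and DESeq2 each gave 2 of 11, where 9.07% and 5.60% of all genes tested had such a p. The median was -0.03 without dox replicate 1 and -0.31 without no dox replicate 1.

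NQO1, a quinone reductase that is also a target of the antioxidant factor NRF2, was the most highly expressed of these genes. It stood at 534 and 511.5 RPKM without dox and at 442 and 427 RPKM with dox (log2 fold change -0.24, SE 0.10, adjusted p = 0.458 in limma). Both dox libraries were the lower ones. SLC7A5, the large neutral amino acid transporter that carries tryptophan, had 64.5 and 72.9 RPKM without dox and 52.2 and 53.3 RPKM with dox (log2 fold change -0.37, SE 0.12, adjusted p = 0.361 in limma). ABCG2, a drug efflux pump, stood at 6.52 and 6.64 RPKM without dox and at 4.80 and 5.54 RPKM with dox (log2 fold change -0.32, SE 0.14, adjusted p = 0.503 in limma).

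The other named genes of the list rested on few reads. IL1B, the cytokine interleukin-1β, had 13 and 17 reads (no dox) and 2 and 7 reads (dox). SERPINB2, a plasminogen activator inhibitor, had 37 and 19 reads (no dox) and 14 and 9 reads (dox). VAV3, a guanine nucleotide exchange factor, had the highest log2 fold change of the list, 0.82 ± 0.43 (SE; limma, adjusted p = 0.605), on 22 and 69 reads (no dox) and 43 and 58 reads (dox), and its groups overlapped. Of the 8 genes not tested, 6 (ALDH3A1, UGT1A1, UGT1A6, GSTA1, EREG and PTGS2, named because of their values) were listed at 0 in all libraries. A listed 0 need not mean that a gene was silent, since PARP6 and KRT19 were listed at 0 too.

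The complex that holds the receptor, and the coactivators it recruits, had 10 genes tested, and 0 passed an adjusted p of 0.05 (limma, edgeR and DESeq2). The unadjusted p was under 0.05 for 0 in limma and DESeq2 and 1 in edgeR. Over all genes tested it was so for 9.28% in limma, 5.60% in DESeq2 and 9.07% in edgeR. The adjusted threshold was passed by 0.068% in limma and edgeR and 0.173% in DESeq2. A count of 0 at that threshold is therefore the usual result for short lists, here and in the other lists. EP300, a histone acetyltransferase, had a log2 fold change of -0.19 (SE 0.17, adjusted p = 0.778 in limma). ARNT2, the paralog of ARNT, was low, with 38 and 71 reads (no dox) and 20 and 25 reads (dox), and a log2 fold change of -0.78 (SE 0.41, adjusted p = 0.601 in limma).

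Enzymes that make or remove kynurenine pathway metabolites, some of which bind AHR, were listed as a possible source of ligand. Of 11 genes 6 were tested, and 0 passed an adjusted p of 0.05 (limma, edgeR and DESeq2), against 3 at an unadjusted p under 0.05 in limma and 2 in each other tool. Over all genes tested, 9.28% had such a p in limma, 9.07% in edgeR and 5.60% in DESeq2. IDO1 and TDO2, which open the pathway, had at most 5 and 0 reads in a library, and IDO1 is in the AHR target list as well. AADAT, a kynurenine aminotransferase, had 55 and 33 reads without dox and 12 in each dox library (log2 fold change -1.42, SE 0.43, adjusted p = 0.315 in limma). KYAT1, another kynurenine aminotransferase, stood at 3.94 and 3.07 RPKM without dox and at 5.01 and 5.26 RPKM with dox (log2 fold change 0.57, SE 0.19, adjusted p = 0.358 in limma). KMO, kynurenine monooxygenase, had 21 and 15 reads (no dox) and 0 and 13 reads (dox), so that its difference rested on dox replicate 1, where a count of 0 allows up to 3 reads.

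ARNT also serves the hypoxia-inducible factors, and TIPARP has been described as a hypoxia-responsive gene, so the other partners and the targets of those factors were compared. Among 10 genes of the same bHLH-PAS family, 7 were tested and 0 passed, with an adjusted or an unadjusted p (limma, edgeR and DESeq2). Over all genes tested, 9.28% had an unadjusted p under 0.05 in limma. SIM2 had the smallest p of these (log2 fold change 0.49, SE 0.24, adjusted p = 0.549 in limma), NPAS1 had 0.19 and EPAS1, which encodes HIF-2α, 0.14, both log2 fold changes with overlapping groups. Of 10 hypoxia-inducible targets 9 were tested, 0 passed an adjusted p of 0.05, and 2 had an unadjusted p under 0.05 (limma, edgeR and DESeq2), in limma both lower, where 4.59% of all genes tested were lower at that level. These were PDK1, the pyruvate dehydrogenase kinase, at 7.47 and 7.54 RPKM without dox and 5.37 and 5.01 RPKM with dox, and SLC2A1, the glucose transporter GLUT1, at 15.4 and 15.0 RPKM without dox and 11.4 RPKM in both dox libraries. Their log2 fold changes were -0.50 ± 0.11 and -0.38 ± 0.12 (SE; limma, adjusted p = 0.171 and 0.3498). LDHA, lactate dehydrogenase A, had a log2 fold change of -0.18 (SE 0.10, adjusted p = 0.613 in limma).

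**Figure D3:**
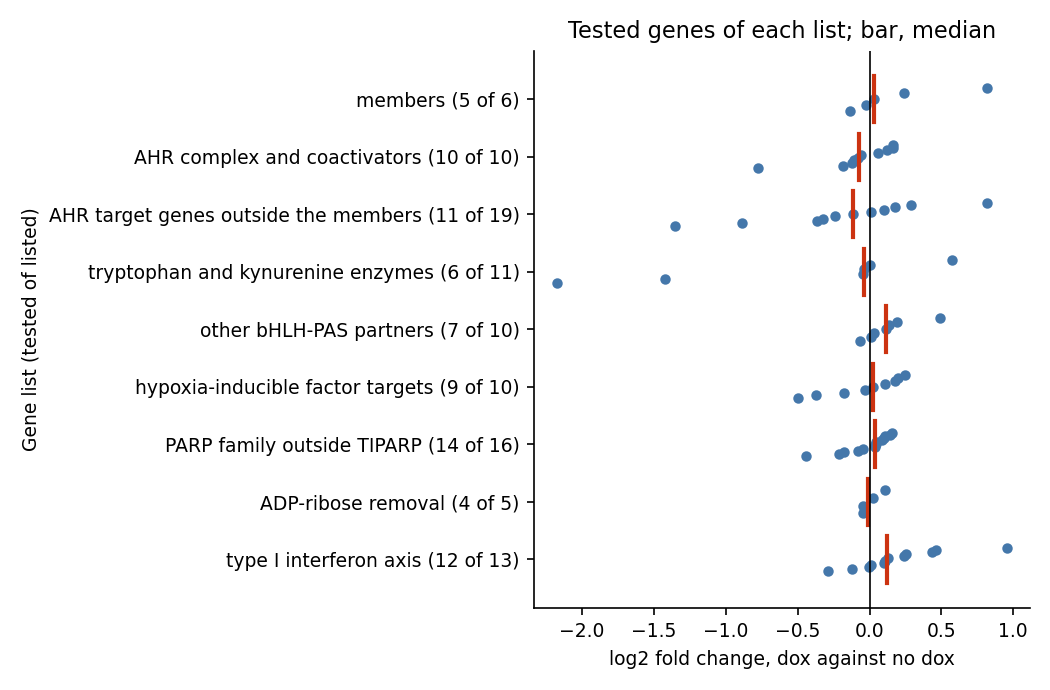
Log2 fold changes of dox against no dox for the tested genes of each list, 1 point a gene, with the list's median as a red bar and the number tested of the number listed in brackets. TIPARP is the right-most point of the members at 0.82, and the median of the AHR targets outside the members is -0.12.

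TIPARP belongs to the PARP family of ADP-ribosyltransferases, and PARP12 and ZC3HAV1 (PARP13) share its CCCH zinc fingers and WWE domain. Of the 16 other family genes 14 were tested, and 0 passed, with an adjusted or an unadjusted p (limma, edgeR and DESeq2). The unadjusted share over all genes tested was 9.28% in limma. Their log2 fold changes lay between -0.44 and 0.15 with a median of 0.04. PARP12 stood at 3.801 and 3.86 RPKM without dox and at 3.60 and 4.80 RPKM with dox, overlapping. ZC3HAV1, an antiviral RNA-binding member, had 2.76 and 3.56 RPKM without dox and 2.56 and 2.77 RPKM with dox.

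PARP16, a PARP of the endoplasmic reticulum, had the lowest log2 fold change of the family, -0.44 ± 0.27 (SE; limma, adjusted p = 0.655), and PARP8 the highest, 0.15 ± 0.12 (SE; limma, adjusted p = 0.739). PARP4, the vault-associated member, and the tankyrase gene TNKS2 had log2 fold changes of 0.11 and 0.10 (limma, adjusted p = 0.865 and 0.855). PARP6 was listed at 0, and PARP15 had at most 2 reads in a library. Of the 5 genes for enzymes that remove ADP-ribose, 4 were tested and likewise 0 passed either p in any of these tools. That is too few genes to set against the 9.28% of all genes with an unadjusted p under 0.05 in limma. ADPRS, OARD1 and PARG had log2 fold changes of 0.11, -0.05 and -0.05.

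TIPARP is known to restrain the type I interferon response through the kinase TBK1, and a list of 13 genes of that axis was compared. Of 12 tested, 0 passed an adjusted p of 0.05 and 2 had an unadjusted p under 0.05 (limma, edgeR and DESeq2), in limma both higher with dox, where 4.68% of all genes tested were higher at that level. The list had a median log2 fold change of 0.12. MX1, an antiviral GTPase, had 46 and 56 reads (no dox) and 79 and 68 reads (dox) (log2 fold change 0.96, SE 0.29, adjusted p = 0.311 in limma). IFIT1, an interferon-induced RNA-binding protein, stood at 5.06 and 4.10 RPKM without dox and at 5.96 and 6.23 RPKM with dox (log2 fold change 0.44, SE 0.15, adjusted p = 0.386 in limma). IRF3, the transcription factor that TBK1 phosphorylates, had a log2 fold change of 0.25 (SE 0.12, adjusted p = 0.540 in limma), and the interferon gene IFNB1 was listed at 0.

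The genes around TIPARP were compared to see whether the higher level extended along the chromosome. Within 500000 bases of TIPARP, 23 genes of the annotation are in the count table, 18 had a read and 8 were tested. Of these 8, 0 passed, with an adjusted or an unadjusted p (limma, edgeR and DESeq2), where 9.28% of all genes tested passed the unadjusted p in limma. The antisense gene TIPARP-AS1, which overlaps the TIPARP gene at its 5′ end, had 53 and 37 reads (no dox) and 40 and 37 reads (dox) (log2 fold change 0.20, SE 0.32, adjusted p = 0.897 in limma). Its reads are at most 53 a library, far fewer than those of TIPARP. SSR3, a subunit of the translocon-associated complex and the neighbour with the most reads, had 0.07 ± 0.09 (SE; limma, adjusted p = 0.861), and CCNL1, a cyclin of splicing, had 0.04 ± 0.15 (SE; limma, adjusted p = 0.957), both log2 fold changes. LINC00886 had -0.62, PA2G4P4 0.07, SNRNP40P1 0.10, LEKR1 -0.02 and ENSG00000243176 -0.12, also log2 fold changes. Among the 15 neighbours left untested, KCNAB1, which encodes a potassium channel subunit, had between 3 and 13 reads a library.

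The genes whose pattern over the 4 libraries lay nearest to that of TIPARP were found among 12343 others with a mean count of at least 50, by Euclidean distance between quantile-normalized log2 CPM (the scale of the fit) centred on each gene's mean. TIPARP itself was at -0.37 and -0.45 without dox and at 0.37 and 0.45 with dox on that scale. The 5 nearest were SMARCD3, a subunit of SWI/SNF chromatin remodelling complexes, at a distance of 0.0888, STK19 at 0.0999, the AP-1 gene JUN at 0.102, the zinc finger repressor gene ZBTB20 at 0.126 and the endosomal kinesin gene KIF16B at 0.132. Their log2 fold changes lay between 0.70 and 0.82. JUN had 57 and 49 reads (no dox) and 58 and 74 reads (dox). With 4 libraries in 2 groups, likeness of this kind is mostly a like difference between the groups, so these log2 fold changes follow from the choice. No gene of the AHR lists was among the 5, but 5 of 12343 genes are too few to bear on those lists.

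**Figure D4:**
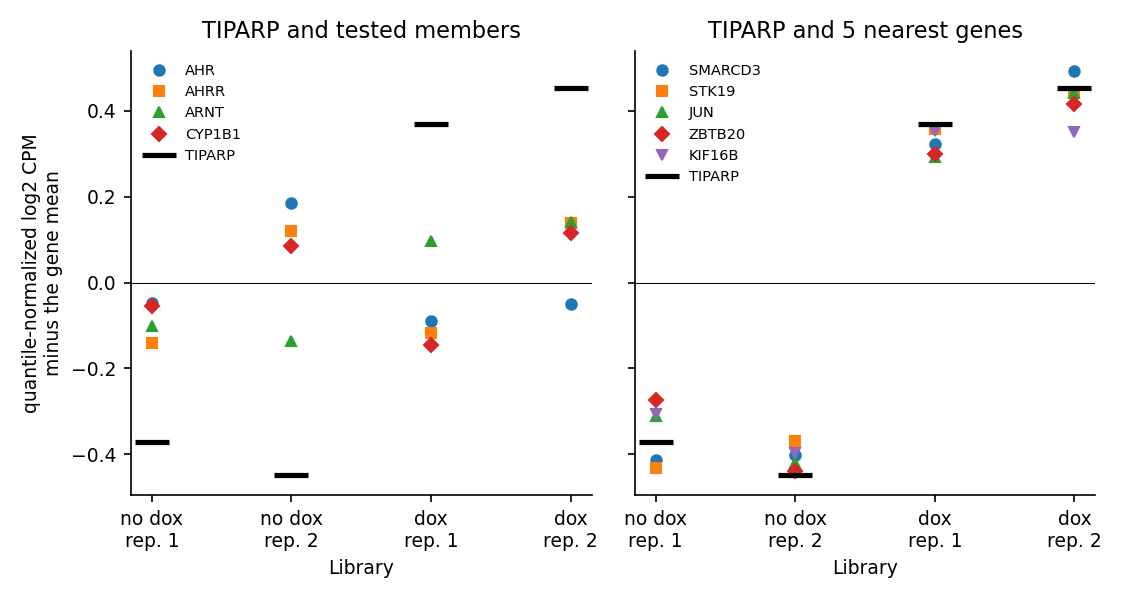
Quantile-normalized log2 CPM minus each gene's mean in the 4 libraries, for TIPARP (black bars) with the other 4 tested members on the left and with the 5 nearest genes on the right. TIPARP goes from -0.37 and -0.45 without dox to 0.37 and 0.45 with dox, and AHRR and CYP1B1 show no such separation. The groups of AHR and ARNT do not overlap either, with smaller log2 fold changes of -0.13 and 0.24 (limma).

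Across 12 other ways of processing the counts, the log2 fold change of TIPARP lay between 0.72 and 0.86, and that of ARNT between 0.19 and 0.26. AHR lay between -0.25 and -0.02. AHRR and CYP1B1 each turned sign when 1 of certain libraries was left out. The adjusted p of TIPARP exceeded 0.05 without a count filter, on both RPKM scales and with any library left out, all fits in which 0 genes of the whole table passed.

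**Figure D5:**
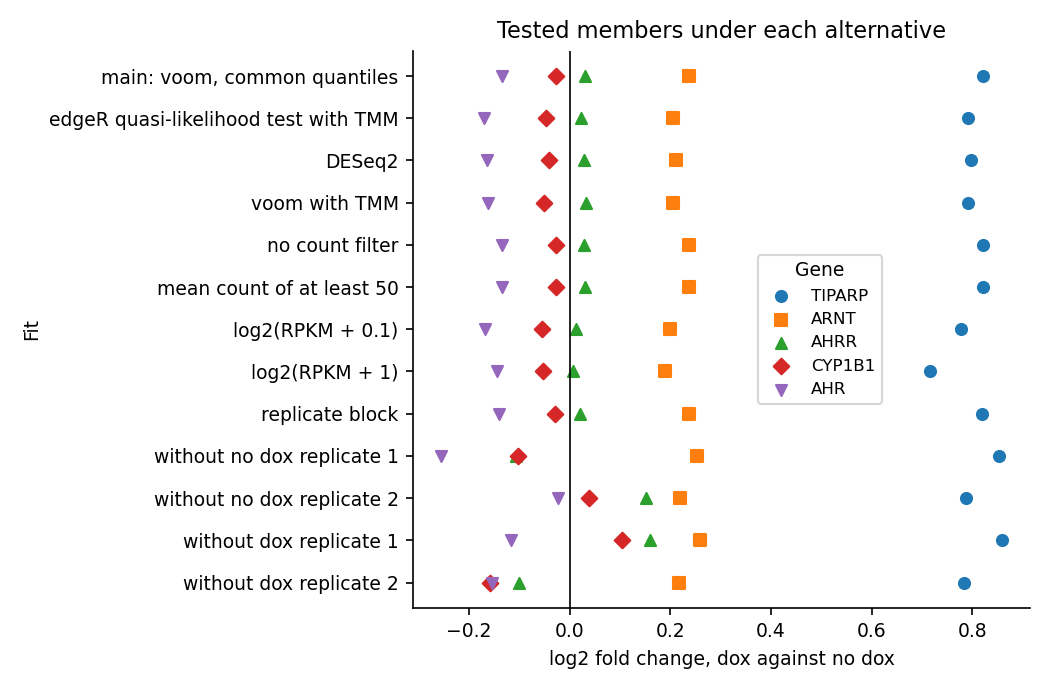
Log2 fold changes of dox against no dox for the 5 tested members, one row for each way of fitting, with the reported fit in the top row. TIPARP stays between 0.72 and 0.86, apart from the other 4 members, which lie between -0.25 and 0.26.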

How the data were processed

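Groups and replicate numbers came from the sample labels. Per the study's methods, the authors discarded ribosomal reads, ran GSNAP against GRCh38 and took exon counts from HTSeqGenie. The deposited counts are whole numbers per gene, and the deposited RPKM values are scaled by gene model length and depth, with a further scaling per sample by the authors. RefSeq gene models are named there, but identifiers in the files are Ensembl's. The study's methods name a stranded mRNA kit for regular input and a different kit for low input. They do not say which applied to these 4 libraries. Whether the counting used the strand is not given in the sources used here.

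Symbols (57532 of 58302 identifiers) and positions are from GENCODE release 44. Genes passing filterByExpr (16181) were scaled by library total, brought to common quantiles, weighted with voom and compared in limma 3.58.1 (R 4.3.3) without covariates, following the study's methods, with Benjamini-Hochberg adjustment over all genes tested. The exact binomial interval was computed in scipy 1.17.1. The scripts were tested on simulated data. RPKM served for levels. A count of 0 allows up to 3 reads; such limits cover counting error only. An exact permutation test of 2 against 2 samples cannot give a p below 0.333.

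Alternatives were edgeR 4.0.16 with TMM, DESeq2 1.42.0, voom with TMM, no count filter, a mean count of at least 50, a replicate block, each library left out, and limma applied to RPKM on a log2 scale after adding 0.1 or 1.

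The members and lists were chosen with earlier results of these data known. The genes named are the members, MIB1, list genes passing an adjusted p of 0.05, the 3 smallest unadjusted p-values of each list (6 for AHR targets and PARPs), genes within 500000 bases of TIPARP, the 5 nearest in pattern and those at the threshold; others were named after their values were seen. For 1 gene that this rule names, the values are not reported here.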

Additional observations from a re-analysis of the deposited data

How the results depend on the processing

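The log2 fold change of TIPARP kept its direction in all 12 alternatives and its side of the threshold in 5 of them, edgeR, DESeq2, voom with TMM, a mean count of at least 50 and the replicate block. Its adjusted p exceeded 0.05 without a count filter (0.82), on log2(RPKM + 0.1) (0.78) and on log2(RPKM + 1) (0.72), where the values are log2 fold changes; the cause was not tested. Leaving out single libraries gave log2 fold changes between 0.78 and 0.86, with the adjusted p between 0.721 and 0.896. In those 4 fits a group has 1 sample, which is assumed to vary like the other group.

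The number of members with an adjusted p of at most 0.05 was 0 without a count filter, on both RPKM scales and with any library left out (0 to 0), and 2 with the replicate block. Over all genes the number was 28 in DESeq2, 1154 with the replicate block, and 0 without a count filter, on both RPKM scales and with any library left out (0 to 0). In the fits with 0, between 833 and 2092 genes had an unadjusted p under 0.05.

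Both groups carry replicate numbers 1 and 2, which no label ties to a culture or day. Deviations of same-numbered libraries from their group means correlated at 0.134 over genes. With the replicate block ARNT had an adjusted p of 0.0379 (limma, log2 fold change 0.24), the second member under 0.05. That fit left 1 residual degree of freedom. It took nearly all of each gene's variance from other genes, with 81.8 prior degrees of freedom against 12.3 in the main fit. The fit with the block passed 7.13% of all genes tested. Among them were 2 of 11 AHR targets, 3 of 9 hypoxia-inducible targets, 2 of 6 kynurenine enzymes, 3 of 12 interferon genes and 2 of 5 epithelial markers.

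The median log2 fold change of the AHR targets outside the members was -0.18 at a mean count of at least 50, -0.0616 on log2(RPKM + 1), and between -0.308 and -0.0276 with single libraries left out. With single libraries left out AHRR ranged from -0.11 to 0.16 and CYP1B1 from -0.16 to 0.10. AHRR was at -0.11 without no dox replicate 1 and at -0.10 without dox replicate 2. CYP1B1 was at 0.04 without no dox replicate 2 and at 0.10 without dox replicate 1. At most 8 reads a library kept CYP1A1 out of the test.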
